A study of Mus musculus with 14 samples.

Results

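The expression of 10 hypoxia and glycolysis genes (Slc2a1, Hk2, Pfkp, Pgk1, Ldha, Pdk1, Car9, Vegfa, Bnip3, and Egln3) was examined in bulk RNA-seq of 14 CT26 tumors. CT26 is a colon carcinoma line of BALBc mice. The genes were chosen by name, 10 of the 53801 Ensembl genes quantified, and all 10 passed the filter on low counts, as did 16287 genes in all. Barcoded CT26 cells had been transplanted under the skin of both flanks of mice aged 6 to 8 weeks, and from day 7 the mice received control IgG or anti-PD-1, an antibody that blocks a T cell checkpoint receptor, every 3 days for 5 doses. Harvest followed 3 days after dosing ended. Control IgG gave 5 tumors of 4 mice (14L, 14R, 16R, 17R, and 20R, with L and R for the flank). Anti-PD-1 gave 5 responders of 4 mice (24L, 26R, 30L, 30R, and 35L) and 4 non-responders of 3 mice (29L, 32R, 33L, and 33R). All tumors were started from the same pool of barcoded cells in the same mouse strain. The paper reports that the clones left at harvest differed between responders and control IgG tumors. Responders were told from non-responders by tumor size after treatment, so response and tumor size cannot be told apart. The paper set a lower and an upper size limit from the control IgG tumors, and tumors between these limits were in neither class. Mice 14, 30, and 33 each gave a left and a right tumor, and p-values treat these as separate samples.

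Cells with little oxygen stabilize the hypoxia-inducible factors (HIF), which are otherwise hydroxylated by the prolyl hydroxylases of the Egln family and then degraded. HIF dimers bind a short DNA core and raise the transcription of genes for glucose uptake, glycolysis, pH control, and vessel growth. Fast-growing tumors also keep many of these genes high when oxygen is present, by oncogenic signals and in the activated immune cells that enter them. The 10 genes cover these steps. Slc2a1 imports glucose, Hk2, Pfkp, Pgk1, and Ldha are glycolytic enzymes, Pdk1 restrains the entry of pyruvate into mitochondria, Car9 is a carbonic anhydrase at the cell surface, Vegfa is a vessel growth ligand, Bnip3 acts in the removal of mitochondria, and Egln3 is itself a HIF prolyl hydroxylase that HIF induces.

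The total of expected counts was 33237744 to 48481461 per tumor, and the 10 genes had between 67 counts (Egln3 in responder 26R) and 100772 counts (Ldha in control IgG tumor 14R). Library 33R of the non-responders stood apart in its relation of expression to gene length. Its log2 expression relative to the mean of all tumors fell by 0.31 per doubling of gene length, while the other 13 libraries lay between -0.097 and 0.075. The summed TPM (a transcript level corrected for gene length, scaled to the same sum in every library) of 9 macrophage markers was 1838 to 2472 in responders, 1332 to 1644 in non-responders, and 1486 to 1716 in control IgG tumors. For 8 T cell markers these sums were 49.5 to 100.1, 25.2 to 33.0, and 23.9 to 47.9, and for 9 endothelial markers 135 to 174, 98.4 to 128, and 79.8 to 120.3. Responders lay above both other groups in all 3 sums. In log2(TPM + 1) the median log2 fold change of all genes tested was itself 0.17 against non-responders and 0.085 against control IgG tumors. In counts scaled to library size, 8 of 8 T cell, 1 of 9 macrophage, and 0 of 9 endothelial markers separated responders from non-responders. Against control IgG tumors 5, 2, and 3 did. Of all genes tested, 12.8% and 15.1% did. Erythroid markers (7 genes) summed to 217 to 1016 TPM in responders and 1311 to 6576 in non-responders, and the control IgG tumors (243 to 6487) overlapped both. Of 8 colon epithelial markers 2 stayed under 1 TPM throughout each group. In bulk tissue, fewer cells of a type and less RNA per cell cannot be told apart.

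To show where HIF could bind, the 250 bases before each annotated start of the 10 genes were read from RefSeq (GRCm38.p6) and searched on both strands for the HIF core in its forms ACGTG and GCGTG. All 10 genes had at least 1 window, 13 windows in total. A core lay in 11 of these windows, and every gene had a core in at least 1 of its windows. Of all 32851 promoter windows, 38.6% held either form, 16.6% ACGTG, and 28.2% GCGTG. The first form also lies within the palindrome CACGTG, the core that Myc and other factors bind, which 6.02% of windows held. Windows of 4 genes are printed 5′ to 3′ on the strand of the gene, without annotated exon bases and with the cores in capitals. They are the 3 genes that varied most closely together over the tumors, Pgk1, Ldha, and Bnip3, and Egln3, which did not vary with them.
Pgk1, chrX:106186850-106187099, + strand: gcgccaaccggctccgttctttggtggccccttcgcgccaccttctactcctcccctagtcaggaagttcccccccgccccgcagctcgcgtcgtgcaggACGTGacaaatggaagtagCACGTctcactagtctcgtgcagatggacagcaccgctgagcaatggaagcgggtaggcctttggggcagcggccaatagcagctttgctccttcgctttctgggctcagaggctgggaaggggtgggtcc
Ldha, chr7:46845554-46845803, + strand: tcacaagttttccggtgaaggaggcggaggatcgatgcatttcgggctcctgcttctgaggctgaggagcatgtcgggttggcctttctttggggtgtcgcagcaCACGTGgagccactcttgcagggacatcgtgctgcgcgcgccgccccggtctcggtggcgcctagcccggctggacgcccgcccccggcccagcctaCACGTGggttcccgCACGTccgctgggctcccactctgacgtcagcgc
Bnip3, chr7:138909520-138909756, - strand: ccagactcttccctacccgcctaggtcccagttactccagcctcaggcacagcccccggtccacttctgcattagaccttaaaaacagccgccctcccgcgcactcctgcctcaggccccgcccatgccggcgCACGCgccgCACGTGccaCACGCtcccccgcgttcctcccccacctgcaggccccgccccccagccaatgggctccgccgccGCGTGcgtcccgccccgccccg
Egln3, chr12:54203875-54204124, - strand: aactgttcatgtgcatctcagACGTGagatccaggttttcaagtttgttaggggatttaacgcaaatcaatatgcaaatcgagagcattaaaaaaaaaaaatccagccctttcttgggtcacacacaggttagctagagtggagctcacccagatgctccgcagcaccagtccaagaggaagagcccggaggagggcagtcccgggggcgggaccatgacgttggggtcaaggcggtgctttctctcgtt
Pgk1 had 2 cores on opposite strands, beginning 150 and 131 bases before the start. Ldha had CACGTG at 2 places, which read as the core on both strands, and a further core 34 bases before the start. Bnip3 had a CACGTG with GCGTG cores around it, and Egln3 had a single core, 229 bases before its start. The other genes also differed in number. There were 3 cores in Pfkp, 2 each in Slc2a1 and Hk2, and 1 each in Car9 and Pdk1, and Vegfa held a core only in the window of an internal start, not in that of its 5′-most start. The cores of Car9 and Vegfa lay in annotated exon bases. A match of these letters is a description of the sequence and not a measured binding site.

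The 10 genes spanned a wide range of levels, which are compared between genes in TPM because CPM (counts scaled to library size by TMM) favors long genes. Ldha was highest, with a median of 1566 TPM over the 14 tumors (range 1305 to 1966), followed by Pgk1 at 948 TPM (785 to 1401). Bnip3 had a median of 121.1 TPM, Vegfa 67.6, Slc2a1 47.4, Pfkp 28.2, and Pdk1 20.4. Hk2 (10.3 TPM), Car9 (9.13 TPM), and Egln3 (3.28 TPM) were lowest. The ranges of Ldha and Pgk1 overlapped, as did those of neighbors from Vegfa to Pdk1 and those of Hk2 and Car9. Pgk1 and Bnip3, Bnip3 and Vegfa, Pdk1 and Hk2, and Car9 and Egln3 were separated in every tumor.

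The genes held large or small shares of their enzyme families. Ldha gave 99.7% to 99.9% of the summed TPM of Ldha and Ldhb, and Slc2a1 94.8% to 97.8% of that of Slc2a1 and Slc2a3, the main glucose transporters of many cells. Hk2 in contrast gave 14.0% ± 2.30 (SD, n = 14) of the hexokinase TPM, against 61.1% ± 3.72 for Hk1 and 25.0% ± 5.41 for Hk3, a hexokinase of myeloid cells. Pfkp gave 29.8% ± 2.33 of the phosphofructokinase TPM, and the liver-type Pfkl 52.3% ± 1.79. Pdk1 (43.8% ± 2.68) and Pdk3 (49.0% ± 1.80) were nearly even. Egln3 gave 3.90% ± 1.28 of the TPM of the Egln prolyl hydroxylases, and Egln2 58.3% ± 3.08. The counts of Pfkp, Pgk1, and Bnip3 were not whole in all 14 tumors, so RSEM had divided some fragments between genes. The decimal part of a count does not show how many fragments were divided, so their share is not known.

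Responders were compared with non-responders to ask whether tumors classed as small after anti-PD-1 differed in these genes from those classed as large. None of the 10 genes passed an adjusted p of 0.05 in edgeR's quasi-likelihood test, where 9.9% of all genes tested did (1612 of 16287). At an unadjusted p under 0.05 there was 1 gene, Pfkp, beside 27.8% of all genes tested (4525), and DESeq2 and limma-voom also called 0. In no gene were the CPM values of the groups without overlap, against 12.8% of all genes tested. The 3 genes with higher estimates in responders were Pfkp, Hk2, and Car9, and the median log2 fold change of the 10 was -0.10 beside 0.0062 over all genes tested.

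**Figure D1:**
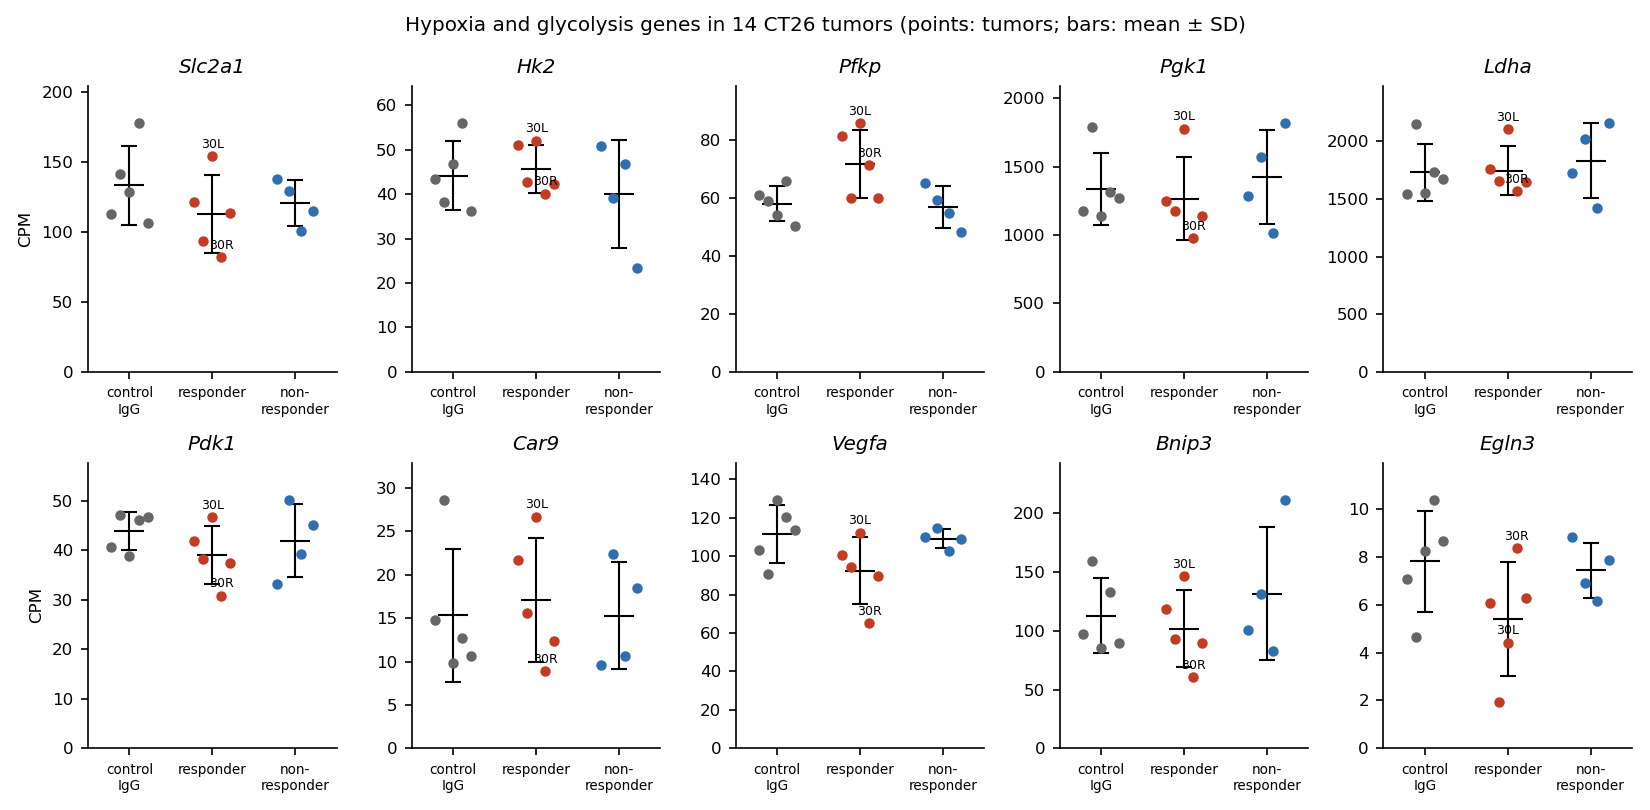
CPM of the 10 genes (vertical axes from 0, different for each gene) in control IgG, responder, and non-responder tumors, with a point per tumor and the mean ± SD as bars. The groups overlap for every gene, and the responders 30L and 30R of 1 mouse, which are named, lie at or near the ends of the responder range for most genes.

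Pfkp, the platelet-type phosphofructokinase that commits sugar to glycolysis, came nearest to a difference. It was at 81.4, 60.1, 85.7, 71.2, and 60.0 CPM in responders 24L, 26R, 30L, 30R, and 35L, and at 65.2, 59.2, 54.7, and 48.2 CPM in non-responders 29L, 32R, 33L, and 33R. Responders 24L, 30L, and 30R lay above all non-responders, while 26R and 35L lay within their range. The means were 71.7 ± 11.9 CPM (SD, n = 5) and 56.8 ± 7.15 CPM (SD, n = 4), a log2 fold change of 0.33 (SE 0.13, 95% interval 0.067 to 0.60, adjusted p = 0.0995). Without 33R the estimate was 0.28 (adjusted p = 0.213). The call was made only under limma-voom with mouse as a random effect (adjusted p = 0.0434), in which the correlation between tumors of a mouse was estimated as -0.28. The macrophage, T cell, and endothelial sums given above in TPM were higher in all responders, 26R and 35L included, than in all other tumors. Their part in the level of Pfkp was not tested.

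The remaining glycolytic genes differed less. Hk2 was at 45.7 ± 5.50 CPM in responders and 40.1 ± 12.2 in non-responders, with 33R lowest of all tumors at 23.4 CPM. Its log2 fold change of 0.19 (SE 0.19, adjusted p = 0.550) became 0.015 without 33R. Pgk1 (log2 fold change -0.17, 95% interval -0.58 to 0.24) and Ldha (-0.068, -0.36 to 0.22) had estimates near 0, and the interval of Ldha ran from 0.78-fold to 1.16-fold. Slc2a1 was at 112.9 ± 27.9 CPM in responders and 120.6 ± 16.3 in non-responders (adjusted p = 0.772), and Pdk1 at 39.0 ± 5.84 and 41.9 ± 7.37 CPM (adjusted p = 0.635).

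The intervals of Bnip3, Car9, and Egln3 were wider than those of the glycolytic genes. Bnip3 was at 118.9, 93.1, 146.6, 60.3, and 89.2 CPM in the responders in the order above and at 100.4, 131.6, 83.1, and 211 CPM in the non-responders. The highest value was that of 33R, and the log2 fold change of -0.37 (95% interval -0.99 to 0.24, adjusted p = 0.422) became -0.035 without it. Car9 was at 21.7, 15.6, 26.7, 8.90, and 12.4 CPM in responders and at 9.59, 22.4, 10.6, and 18.5 CPM in non-responders, so that both groups held low and high tumors (log2 fold change 0.16, 95% interval -0.63 to 0.95). Vegfa was at 92.4 ± 17.4 CPM in responders and 109.0 ± 4.86 in non-responders (log2 fold change -0.24, adjusted p = 0.261). Egln3 was at 6.08, 1.95, 4.41, 8.36, and 6.28 CPM in responders and at 8.82, 6.90, 6.15, and 7.89 CPM in non-responders. Responder 26R had the lowest Egln3 of all tumors, and the difference did not pass the test (log2 fold change -0.45, SE 0.31, adjusted p = 0.366).

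**Figure D2:**
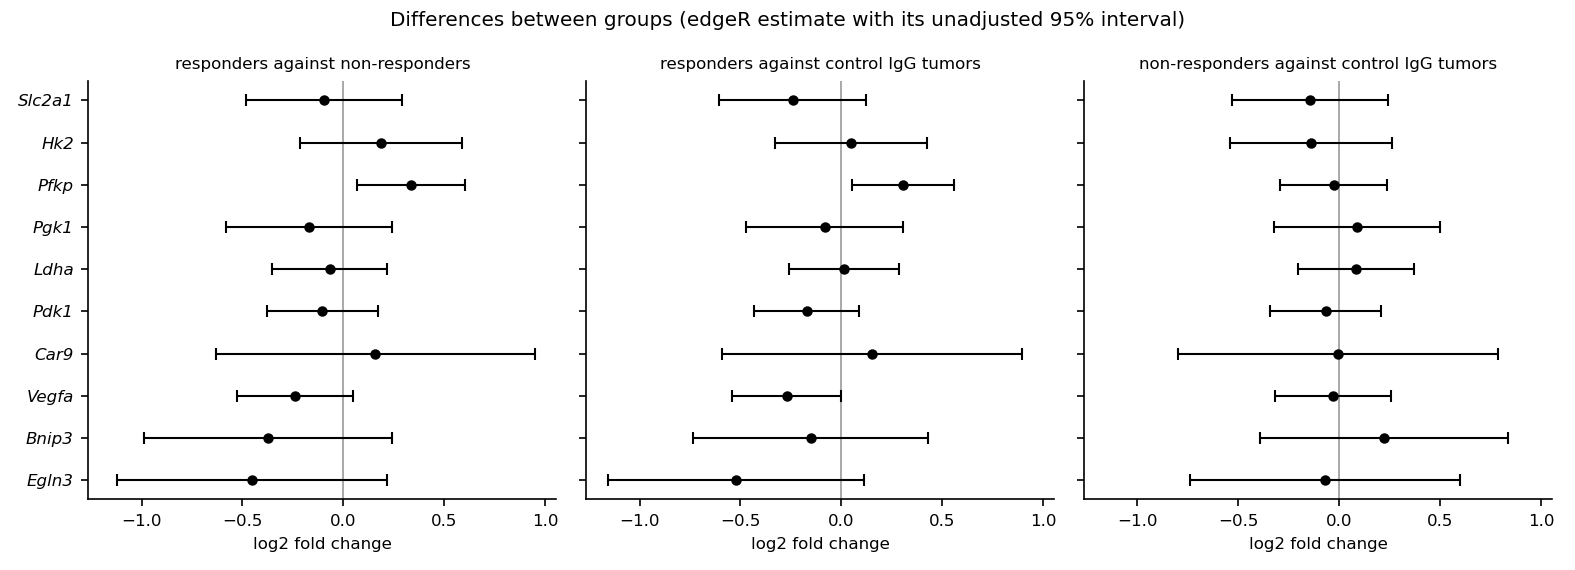
Log2 fold change of each gene (horizontal axes, points) with its unadjusted 95% interval (bars) from edgeR in the 3 comparisons, where values above 0 mean higher in the group named first. The intervals of Pfkp lie above 0 in both comparisons of responders, the interval of Vegfa ends at 0 against control IgG tumors, and all other intervals include 0.

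Responders were then compared with control IgG tumors, which gives the difference that goes with both treatment and response. Again none of the 10 genes passed the test in edgeR, where 13.2% of all genes tested did (2147 of 16287), and DESeq2 and limma-voom called 0. At an unadjusted p under 0.05 there were 2, Pfkp and Vegfa, beside 27.9% of all genes tested (4546). The groups overlapped for all 10 genes, while 15.1% of all genes tested had no overlap. The control IgG tumors 14L, 14R, 16R, 17R, and 20R had 60.9, 58.8, 54.1, 65.9, and 50.2 CPM of Pfkp. The responders 24L, 30L, and 30R thus lay above every control IgG tumor as well (log2 fold change 0.31, SE 0.12, adjusted p = 0.101). Vegfa was at 103.0, 90.5, 129, 120.4, and 113.8 CPM in control IgG tumors and at 100.5, 94.2, 112.1, 65.1, and 89.9 CPM in responders. The lowest value was that of 30R, and the log2 fold change was -0.27 (SE 0.13, adjusted p = 0.179), or -0.17 (adjusted p = 0.335) without 30R. With the tumors of a mouse summed to 1 library Vegfa passed the test (log2 fold change -0.31, adjusted p = 0.0320). The summed TPM of endothelial markers, whose cells respond to Vegfa, was higher in responders, with the limit of that scale given above. Egln3 was at 7.10, 4.65, 8.25, 10.4, and 8.68 CPM in control IgG tumors, with a log2 fold change of -0.52 in responders (SE 0.30, adjusted p = 0.272). Slc2a1 was at 133.3 ± 28.2 CPM in control IgG tumors and 112.9 ± 27.9 in responders (log2 fold change -0.24, adjusted p = 0.390). The other 6 genes had adjusted p-values of 0.388 to 0.960. The comparison shares its responders with the previous comparison, so the same high Pfkp values enter both.

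Between non-responders and control IgG tumors 0 of the 10 genes passed by edgeR, and 0 had an unadjusted p under 0.05. The background here was 0.0% (0 of 16287 genes called), with 758 genes at an unadjusted p under 0.05, and DESeq2 called 16 genes and limma-voom 0, none of them among the 10. No overlap was found for 1.25% of all genes tested and for none of the 10. The estimates lay between -0.14 (Slc2a1) and 0.22 (Bnip3), and the adjusted p-values were 0.931 and above. For Ldha and Pfkp the 95% intervals ran from 0.87-fold to 1.29-fold and from 0.82-fold to 1.18-fold, while those of Car9 (0.58-fold to 1.72-fold) and Bnip3 (0.76-fold to 1.78-fold) were wider. Without 33R the estimates of Hk2, Pfkp, Pgk1, Ldha, and Bnip3 changed sign, to between -0.12 and 0.036.

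By the median over the 10 genes, left and right tumors of a mouse differed more than the groups did. In the comparisons in the order above, the median absolute log2 fold change of the 10 genes was 0.18, 0.16, and 0.077. Over all genes tested it was 0.22, 0.20, and 0.12. Group estimates average over several tumors, so the 2 kinds of difference are not like measures. The median gap over the 10 genes was widest between responders 30L and 30R. In log2 CPM Hk2, Ldha, and Bnip3 lay farther apart in mouse 33, which holds library 33R. With the trend on gene length removed from each library, these genes lay farther apart in mouse 30. Their log2 differences, right minus left, were then -0.45, -0.52, and -1.38, against -0.36, 0.37, and 1.03 in mouse 33. Car9 was at 26.7 CPM in 30L and 8.90 CPM in 30R. Bnip3 was at 147 and 60.3 CPM, Slc2a1 at 154 and 81.9 CPM, Pgk1 at 1779 and 979 CPM, and Vegfa at 112.1 and 65.1 CPM. In all, 9 of the 10 genes were lower in 30R, and Egln3 was higher (4.41 and 8.36 CPM). The median absolute log2 difference of the 10 genes between these tumors was 0.82, beside 0.18 for all genes tested. Both were classed as responders, and 30L had the highest and 30R the lowest value among responders for 8 of the genes, all but Pfkp and Egln3.

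In mouse 14 of the control IgG group the right tumor was higher in 6 of the 10 genes. Pgk1 was at 1179.7 CPM in 14L and 1793 CPM in 14R, Bnip3 at 96.9 and 159 CPM, and Car9 at 14.8 and 28.6 CPM. Egln3 went the other way, with 7.10 and 4.65 CPM. The median absolute log2 difference was 0.40, beside 0.26 over all genes tested. In mouse 33 of the non-responders the right tumor was higher in 8 of 10 genes in CPM and in 4 of 10 in TPM, with a median absolute log2 difference of 0.48 beside 0.42. Bnip3 was at 83.1 and 211 CPM and Pgk1 at 1019 and 1818 CPM, while Hk2 was at 46.8 and 23.4 CPM. With the trend on gene length removed from each library, Bnip3 was 1.03 and Pgk1 0.69 higher in 33R on the log2 scale and Hk2 0.36 lower, against 1.35 and 0.84 higher and 0.999 lower without this step. The same step left mouse 30 with 9 genes lower in 30R. There was 1 pair of tumors per group, so these differences have no replicate check and no test.

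**Figure D3:**
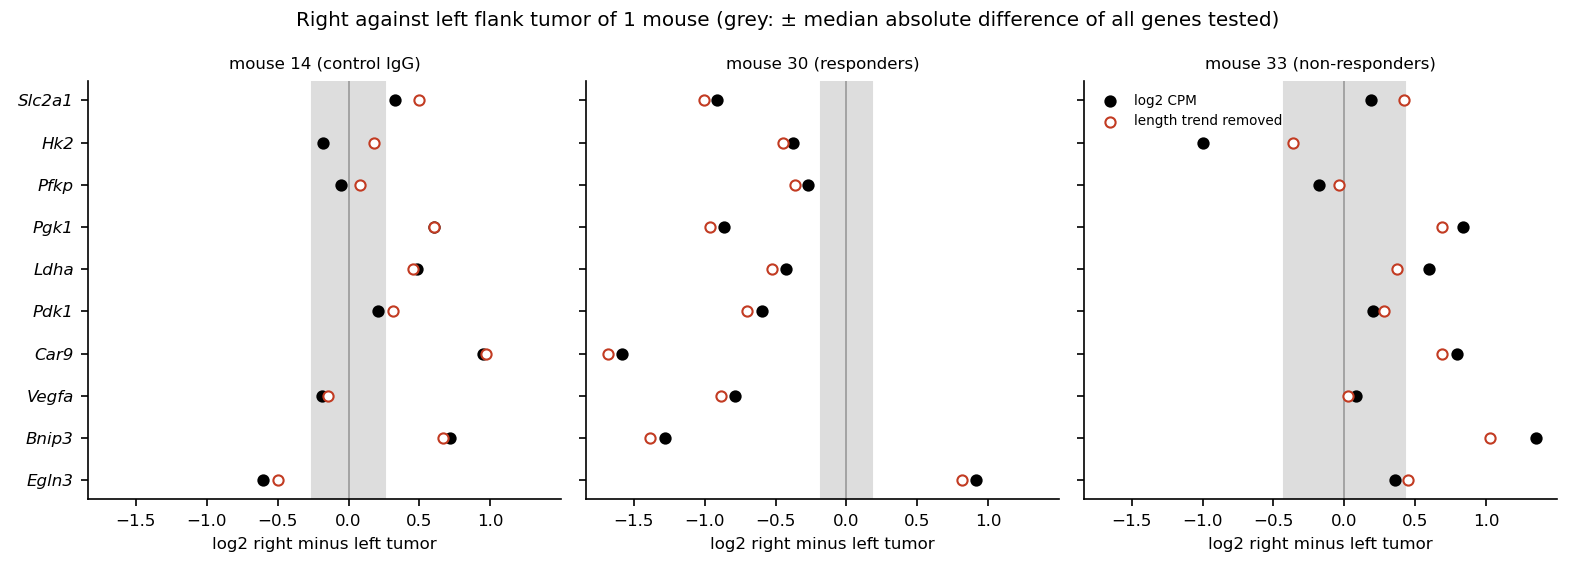
Log2 difference of the right minus the left flank tumor for each gene in mice 14, 30, and 33, as log2 CPM (black points) and after the gene length trend was removed (open points), with grey bands of ± the median absolute difference of all genes tested. In mouse 30 all genes but Egln3 lie below the band, and Car9 reaches -1.58. In mice 14 and 33, Pgk1, Ldha, Car9, and Bnip3 lie above the band in log2 CPM.

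Across the 14 tumors 6 of the genes varied together. Pearson correlations of log2 CPM are given as a description, over tumors that partly share mice and that share the CT26 line, and without a p-value. Over all 45 pairs of the 10 genes the median r was 0.25 and 30 pairs were positive. Pgk1 and Ldha had the highest r (0.96, Spearman rho 0.90), followed by Pgk1 and Bnip3 (0.93, rho 0.96) and Ldha and Bnip3 (0.87, rho 0.90). Slc2a1, Pgk1, Ldha, Pdk1, Car9, and Bnip3, which were grouped after these values were seen, had a positive r in each of their 15 pairs, with a median of 0.72 (0.40 to 0.96). The median of the other 30 pairs was -0.0099. The medians within the 6 genes and of the other pairs were 0.75 and 0.18 after each group was centered on its mean, 0.79 and 0.25 after the length trend was removed, 0.78 and 0.17 without 33R, and 0.59 and -0.026 without both tumors of mouse 30. In log2(TPM + 1) they were 0.49 and 0.18.

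Pfkp, Hk2, Egln3, and Vegfa stood outside this pattern to different degrees. Hk2 and Pfkp correlated with each other (r = 0.65, rho 0.68) and little with the mean of the other 9 genes (r = -0.049 for Hk2 and 0.13 for Pfkp). This depended on 33R and on the scale, since these values were 0.29 and 0.29 without 33R and 0.45 and 0.58 in log2(TPM + 1), where Bnip3 had 0.42. Egln3 had an r of -0.093 with the mean of the others and of -0.45 with Car9 (rho -0.68). Vegfa correlated with Slc2a1 (r = 0.64) and Pdk1 (0.57) and less with Ldha (0.16) and Car9 (0.10). Cores of HIF lay in the promoter windows of genes within and outside the pattern of the 6 genes. Within it there were 5 each in the printed window of Ldha and in Bnip3, with CACGTG counted on both strands. Pgk1 and Slc2a1 had 2 each, and Car9 and Pdk1 had 1 each. Outside it there were 3 in Pfkp, 2 in Hk2, and 1 in Egln3, and Vegfa had cores only at its internal start. A relation of cores to the pattern was not tested.

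**Figure D4:**
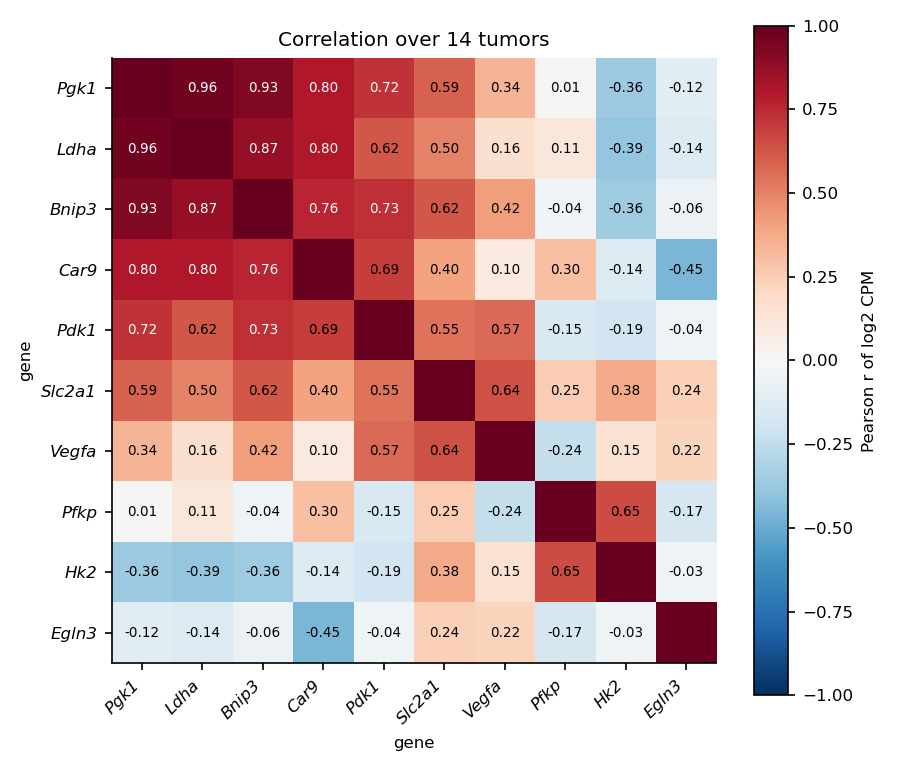
Pearson r of log2 CPM over 14 tumors for each pair of the 10 genes (both axes), from -1 in blue to 1 in red. Pgk1, Ldha, Bnip3, Car9, Pdk1, and Slc2a1 form a block of positive values from 0.40 to 0.96, while Hk2 and Pfkp pair with each other at 0.65 and Egln3 is near or below 0 with most genes.

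The mean z-score of the 10 genes per tumor, the mean of each gene's log2 CPM scaled to its own mean and SD, ran from -1.08 in 30R to 0.99 in 30L. Control IgG tumors 17R (0.67) and 14R (0.53) and non-responder 32R (0.55) were also high, and responder 26R (-0.66) and non-responder 33L (-0.60) were low, so that every group held tumors above and below 0. Among 10007 genes outside the lists with a mean log2 CPM of at least 3, Map2k1, a kinase of the MAP kinase cascade, followed this mean most closely (r = 0.93, 106 to 136 CPM). Upp1, a uridine phosphorylase, had an r of 0.85, Vdac2, a channel of the outer mitochondrial membrane, 0.85, Vapa 0.84, Gpat3, an enzyme of glycerolipid synthesis, 0.84, and Ier3 0.82. The median r of the genes searched was 0.059. None of these 6 genes passed the test in any comparison.

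Other genes of the same pathways were then set against this mean. Of 19 other glycolysis genes, 12 had an r above 0.5 (63.2%), and of 25 other HIF targets 17 (68%), beside 2.92% of all genes tested. Eno1 (0.83), Eno2 (0.83), Gpi1 (0.81), and Aldoa (0.80) were the glycolytic genes with the highest values. Ndrg1 (0.87), Ero1l (0.83), and Mif (0.82) led the HIF targets. Pfkfb4, which makes an activator of phosphofructokinase, had an r of -0.39. In the HIF machinery (9 genes) only Egln1, itself a HIF target, exceeded 0.5 (r = 0.80), while Hif1a (0.082) and Arnt (0.057), the subunits of the factor, were near 0 and Epas1 was at -0.73. Of the 12 genes of pyruvate fate 2 exceeded 0.5, Pdk3 (0.75) and Dlat (0.56), and of 7 pentose phosphate genes and 9 genes of the VEGF family none did. The receptor Kdr had an r of -0.61, and the summed endothelial markers of -0.57, beside -0.51 for 10 epidermal markers. Macrophage marker sums had an r of -0.30, T cell sums -0.081, and erythroid sums 0.11 with the mean of the 10 genes.

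**Figure D5:**
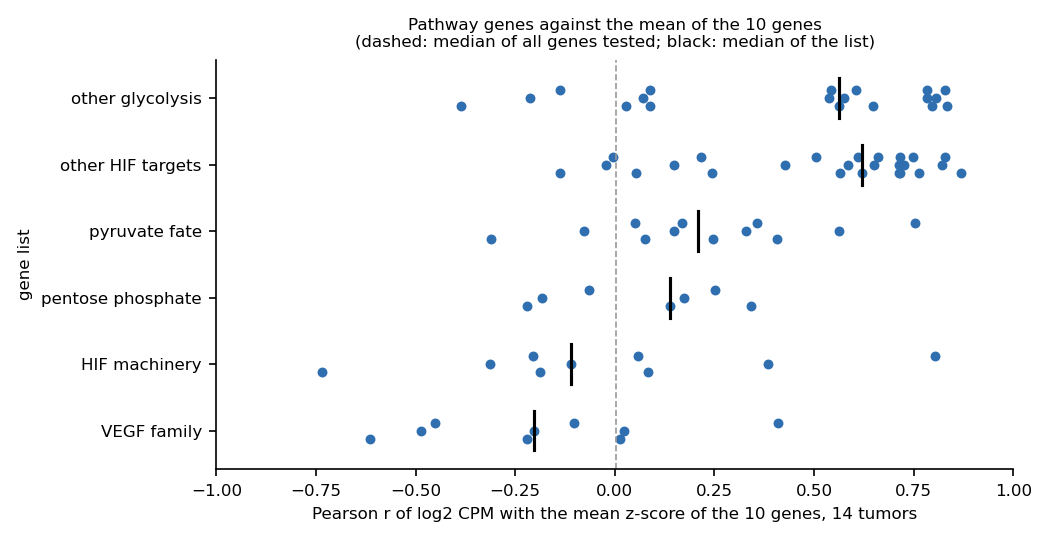
Pearson r over 14 tumors between the log2 CPM of each pathway gene (points, a row per list) and the mean z-score of the 10 genes, with list medians as black bars and the median of all genes tested as a dashed line near 0. The medians of the other HIF targets (0.62) and other glycolysis genes (0.56) lie to the right, and those of the HIF machinery (-0.11) and the VEGF family (-0.20) lie left of 0.

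The lists of other genes of these pathways were read against the same backgrounds, 9.9% of all genes tested for responders against non-responders (827 higher and 785 lower) and 13.2% against control IgG tumors. Of 19 other glycolysis genes 2 were higher in responders than in non-responders and none lower, a share near that background, with a median log2 fold change of 0.17. Hk3, the myeloid hexokinase, was at 84.6, 44.7, 67.2, 66.7, and 39.4 CPM in responders 24L, 26R, 30L, 30R, and 35L and at 31.6, 33.7, 33.1, and 27.4 CPM in non-responders, without overlap (log2 fold change 0.94, SE 0.23, adjusted p = 0.0236). Pfkfb3, which makes the activator of phosphofructokinase, was at 61.6, 25.0, 48.8, 41.7, and 33.7 CPM in responders and at 30.2, 20.3, 20.2, and 14.5 CPM in non-responders (log2 fold change 0.98, SE 0.25, adjusted p = 0.0256). Both were also higher than in control IgG tumors, by 0.85 (adjusted p = 0.0188) and 0.89 (adjusted p = 0.0204). Responder 24L had the highest level of both. The calls of Hk3 and Pfkfb3 against non-responders were lost without 24L, 30R, 32R, or 33R (adjusted p up to 0.0632 and 0.0690), and those against control IgG tumors without 24L or 20R (up to 0.0582 and 0.0623). With the tumors of a mouse summed to 1 library, the calls against non-responders were also lost (adjusted p = 0.0534 and 0.0674), while those against control IgG tumors held. With the compared groups alone, that of Pfkfb3 against non-responders was lost (adjusted p = 0.0605). The macrophage sums in TPM, a scale on which the median of all genes was also higher in responders, were higher there without overlap. The part of macrophages in these differences was not tested.

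Of 25 other HIF targets 2 were higher in responders than in non-responders and none lower, a share not above the 9.9% of all genes tested, with a median log2 fold change of -0.085. These were Plod1, a lysyl hydroxylase of collagen (164.7 ± 6.95 and 133.4 ± 19.1 CPM, adjusted p = 0.0416), and Car12, a carbonic anhydrase like Car9 (log2 fold change 0.55, SE 0.16, adjusted p = 0.0477). Against control IgG tumors Plod1 was higher (adjusted p = 0.0323) and Cited2, which competes with HIF for a coactivator, was lower, at 67.5 ± 10.03 CPM in responders and 90.2 ± 7.60 in control IgG tumors (log2 fold change -0.42, SE 0.095, adjusted p = 0.0110). In the HIF machinery Egln2 was higher in responders than in control IgG tumors (81.3 ± 3.09 and 70.7 ± 4.56 CPM, adjusted p = 0.0484). Against non-responders 0 of 9 passed in edgeR, DESeq2, and limma-voom, with 2 at an unadjusted p under 0.05 in each. With mouse as a random effect 1 passed, with 4 at an unadjusted p under 0.05. The call of Cited2 held without each tumor in turn, while those of Egln2 and Car12 held in 3 and that of Plod1 against non-responders in 4 of 14 such omissions, with adjusted p-values up to 0.123, 0.106, and 0.0994. In log2(TPM + 1) and log2(TPM + 0.1) the calls of Cited2 (adjusted p = 0.133 and 0.137) and of Plod1 against control IgG tumors (0.0512 and 0.0539) were lost. With 1 library per mouse the calls of Egln2 (adjusted p = 0.0649), Car12 (0.112), and Plod1 against non-responders (0.0936) were lost, and with no filter on low counts those of Egln2 (0.0944), Car12 (0.0581), and Plod1 in both comparisons (0.0591 and 0.0528). An offset for gene length also lost Egln2 (0.103), Car12 (0.0606), and Plod1 in both comparisons (0.104 and 0.0686). The compared groups alone lost Car12 (0.0845) and Plod1 against non-responders (0.0935), and size factors of DESeq2 lost Egln2 (0.0537).

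In the genes of pyruvate fate and the pentose phosphate path, 1 each passed by edgeR and by limma-voom in both comparisons of responders. Of the 12 genes of pyruvate fate, DESeq2 called 3 lower than in non-responders (2559 of 27325 genes in all). Against control IgG tumors it called 3 lower and 1 higher (2998 in all). With mouse as a random effect 4 were lower than in non-responders (2973 of 16287 in all). Against control IgG tumors 3 were then lower and 1 higher (2974 in all). Pdhb, a subunit of pyruvate dehydrogenase, was at 99.0 ± 4.90 CPM in responders, 121.0 ± 8.22 in non-responders (log2 fold change -0.29, adjusted p = 0.0257), and 121.0 ± 8.58 in control IgG tumors (-0.29, adjusted p = 0.0141), and the responders lay below all other tumors. This was a gene whose difference depended on the scale, since in log2(TPM + 1) and log2(TPM + 0.1) neither comparison passed, and without 24L, 30R, 32R, or 33R the call against non-responders was lost (adjusted p up to 0.0746). That call was also lost with an offset for gene length (0.0699), no filter on low counts (0.0705), and the compared groups alone (0.0774). G6pdx, the entry enzyme of the pentose phosphate path, was at 122.0 ± 6.95 CPM in responders, above all other tumors (90.6 ± 20.1 in non-responders, adjusted p = 0.0436, and 91.9 ± 6.45 in control IgG tumors, adjusted p = 0.0332). The call of G6pdx held in 4 of 14 omissions of a tumor against non-responders and in 6 against control IgG tumors (adjusted p up to 0.0975 and 0.0788), and with 1 library per mouse that against non-responders was lost (adjusted p = 0.0593). The latter was also lost with an offset for gene length (0.0622) and the compared groups alone (0.0967). In log2(TPM + 1) and log2(TPM + 0.1) the call against control IgG tumors was lost (0.0528 and 0.0553). In the VEGF family, where Vegfa did not pass the test, the lymphatic vessel ligands Vegfd (17.4 ± 1.76 against 13.1 ± 1.58 CPM in control IgG tumors, adjusted p = 0.0127) and Vegfc (1.55 ± 0.43 against 0.97 ± 0.12 CPM, adjusted p = 0.0420) were higher. The call of Vegfd held in all 14 omissions and that of Vegfc in 5, and with 1 library per mouse Vegfc was lost (adjusted p = 0.0760). The call of Vegfc was also lost with no filter on low counts (0.0897) and in log2(TPM + 1) and log2(TPM + 0.1) (0.280 and 0.298). Against non-responders 1 of the 9 passed with mouse as a random effect, with 5 at an unadjusted p under 0.05. In edgeR, DESeq2, and limma-voom 0 passed, with 4 at an unadjusted p under 0.05 in each. Between non-responders and control IgG tumors 0 genes of the 6 lists passed in these 3 tools, and by edgeR 2 had an unadjusted p under 0.05, Pdp1 and Cited2.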

How the data were processed

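RNA-seq libraries of 14 tumors were grouped by their labels, with the mouse read from the tumor number. The authors ran STAR against mm10, then RSEM, with the defaults of each. The deposited expected counts are RSEM's estimates of fragments per gene, not normalized. The deposited TPM are scaled by gene length and to the same total, and the deposited FPKM were not used. Symbols came from GENCODE M21 (53620 of 53801 genes matched), and promoter windows from RefSeq (GRCm38.p6).

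Rounded expected counts entered edgeR 4.0.16 (R 4.3.3, TMM, filterByExpr, quasi-likelihood test, Benjamini-Hochberg adjustment), with all 14 tumors and 3 groups in the fit. Log2 CPM used a prior count of 2. On simulated counts with 200 changed genes of 16287 (responders against non-responders), edgeR recovered 86% (73% of 2-fold and 99% of 4-fold changes), with 2.82% of its calls false. The lowest chi-square per gene between tumors of a group was 21.2, so none was a repeat. A count of 3 is at most 0.0903 CPM, and this covers counting error only.

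The 10 genes and the lists of other genes were chosen with earlier results of these data known. All 10 genes are named, then up to 5 genes per list and comparison that passed, and the 6 genes outside all lists most alike. The 6 genes that varied together were grouped after their values were seen. Alternatives were DESeq2 1.42.0, limma 3.58.1 (voom, also with mouse as a random effect), size factors of DESeq2, other filters, an offset for gene length (loess, span 0.5), log2 TPM with pseudocounts of 1 and 0.1, 1 library per mouse (tumors summed), the compared groups alone, and the omission of each tumor.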

Additional observations from a re-analysis of the deposited data

Results flagged for a closer look

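In 2 of 30 sets of values (10 genes in 3 groups) a tumor lay far from the others of its group by Dixon's test, which flags about 1 in 20 by chance. Both were control IgG tumor 14R, with 1792.9 CPM of Pgk1, where the next highest control IgG tumor had 1316 CPM, and 28.6 CPM of Car9, where the next had 14.8 CPM. Without 14R, the log2 fold change of Pgk1 between responders and control IgG tumors went from -0.083 to 0.048 and that of Car9 from 0.15 to 0.51 (adjusted p = 0.896 and 0.334).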

How the results depend on the processing

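The count of the 10 genes called was 0 in each comparison under all alternatives and omissions but 2. Those were limma-voom with mouse as a random effect for responders against non-responders (1, Pfkp) and 1 library per mouse for responders against control IgG tumors (1, Vegfa). The count of all genes called moved more. Between responders and non-responders it was 2559 with DESeq2, 2973 with mouse as a random effect, and 689 with the compared groups alone, and 569 to 1978 with a tumor left out (lowest without 24L, then 615 without 32R, 686 without 30R, and 793 without 33R). Against control IgG tumors responders gave 1190 to 3385 with a tumor left out. Non-responders gave 16 with DESeq2, 3 with no filter, and 0 to 5 with a tumor left out.

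TPM shifted all genes. In log2(TPM + 1) the median log2 fold change of responders against non-responders was 0.17 over all genes and 0.13 over the 10 genes (0.24 and 0.13 in log2(TPM + 0.1)). There Slc2a1 (0.13 with either pseudocount), Pgk1 (0.086), Ldha (0.19), and Pdk1 (0.12 and 0.13) were higher rather than lower, without passing. Against control IgG tumors Pgk1 (0.042) and Bnip3 (0.0034 and 0.00321) turned in TPM, and Hk2 with the length offset (-0.074). Between non-responders and control IgG tumors Pgk1 (-0.043) and Ldha (-0.071) turned in TPM, Car9 with limma-voom (0.0096) and 1 library per mouse (0.14), Egln3 with mouse as a random effect (0.014), and Pfkp with 1 library per mouse (0.032).

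With a tumor left out, log2 fold changes of responders against non-responders ran from -0.23 to 3.6e-05 for Slc2a1, -0.16 to 0.035 for Ldha, and -0.060 to 0.40 for Car9. Against control IgG tumors they ran from -0.015 to 0.16 for Hk2, -0.24 to 0.048 for Pgk1, -0.062 to 0.11 for Ldha, -0.067 to 0.51 for Car9, and -0.32 to 0.0070 for Bnip3. For non-responders against control IgG tumors they ran from -0.27 to 0.036 for Hk2, -0.10 to 0.030 for Pfkp, -0.066 to 0.21 for Pgk1, -0.020 to 0.18 for Ldha, -0.17 to 0.030 for Pdk1, -0.25 to 0.34 for Car9, -0.11 to 0.028 for Vegfa, -0.12 to 0.38 for Bnip3, and -0.22 to 0.048 for Egln3. The causes were not tested. No mouse number recurs across groups, so no tumors are paired across groups.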
